A study of Homo sapiens with 9 samples.

Results

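The EGFR family of receptor tyrosine kinases was followed, with its ligands and inhibitors, through the silencing of ENAH in H1650 cells. The genes were chosen by name. They are the receptors EGFR, ERBB2 and ERBB3, the ligands AREG, EREG, TGFA, HBEGF and BTC, and the receptor inhibitors ERRFI1 and LRIG1, so the set is wider than receptors and ligands alone. All 10 were found among the 16630 genes of the table, and 8 of them passed the filter for testing, which kept the 13273 genes that averaged 0.5 FPKM or more. AREG and EREG lay below it. FPKM is a fragment count scaled by transcript length and by the total of the library, so levels of different genes are compared per length.

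H1650 is an established line of human lung cancer cells of the non-small cell type, known for an activating deletion in the kinase domain of its EGFR gene. All cells were transfected with siRNA at 20 nM and RNA was taken on day 3. The control group received a non-targeting pool, the group called siMENA a pool against ENAH transcripts in general, and the group called siMENA11a a mix that matches the alternative exon 11a of ENAH. Each group had 3 libraries, which the submitters call biological replicates, all from this 1 cell line. ENAH encodes hMENA, a protein that promotes the growth of actin filaments, and exon 11a marks its epithelial isoform.

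Ligands of this family are made as precursors in the cell membrane and are cut free by proteases of the ADAM family. They bind EGFR, which pairs with itself or with ERBB2 or ERBB3 and signals through the RAS-ERK and PI3K-AKT pathways. ERBB2 has no known ligand of its own, and ERBB3 has little kinase activity but binds PI3K well. ERRFI1, also called MIG6, is switched on by the pathway and blocks the receptor's kinase domain, and LRIG1 directs the receptors to degradation.

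The siRNA mix of the siMENA11a group was directed at the following exon, which is shown because it separates the siRNA groups by design. Its 63 bases lie at chr1:225504991-225505053 (GRCh38, minus strand) and are read 5′ to 3′, with capitals for an 8-base run whose 7-base parts recur below:
ENAH exon 11a: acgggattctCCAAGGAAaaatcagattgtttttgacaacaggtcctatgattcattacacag

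Short runs of bases from earlier work on these same comparisons were looked up in the 3′ UTRs of the genes, on the transcript strand only. For siMENA these were CAGAATA and AGAATAA, which overlap, and for siMENA11a CCAAGGA and CAAGGAA, which overlap in exon 11a. Because they were picked on these libraries, a match supports nothing and is given as a description. The siMENA runs occurred in 24.4% of 11294 tested genes and in 2 of the 10 genes, ERRFI1 and EGFR. The siMENA11a runs occurred in 22% of those tested genes and in 3 of the 10, EGFR, EREG and HBEGF. The sites in ERRFI1, at chr1:8012843-8012850 on the minus strand, and in EGFR, at chr7:55209272-55209278 on the plus strand, are shown because these genes had the lowest siMENA levels relative to control among the genes above 1 FPKM, with the match in capitals:
ERRFI1 3′ UTR: aatatatattCAGAATAAtaaactcaag
EGFR 3′ UTR: ccgtcagagtAGAATAAaaggctgggt

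EGFR also held CAAGGAA at chr7:55205995-55206001 and chr7:55207151-55207157. EREG held CAAGGAA at chr4:74385820-74385826 and CCAAGGA at chr4:74386725-74386731, both on the plus strand.

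The silenced gene was measured first. ENAH stood at 26.1, 30.04 and 26.1 FPKM in control replicates 1 to 3, at 4.43, 5.79 and 5.57 under siMENA and at 9.98, 11.0 and 10.3 under siMENA11a. Every library of each siRNA group was thus below every control library, and siMENA was below siMENA11a. On the log2 scale siMENA stood at -2.18 and siMENA11a at -1.31 against control (limma adjusted p 6.41e-06 and 6.29e-05). The values are per gene, so exon 11a itself was not measured.

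Across the 3 comparisons, ERRFI1 and TGFA were the genes of the set that passed in the main fit, and no receptor did. With the replicate block, ERBB3 passed in siMENA against control (limma adjusted p 0.0181), and EGFR and ERBB2 in siMENA11a against siMENA. EGFR also passed in that last comparison with median-ratio or quantile scaling and without replicate 3 of either group. ERRFI1, the feedback inhibitor, fell under siMENA to 73.3% of control, and it was higher under siMENA11a than under siMENA. TGFA, the most abundant ligand of the set, rose under siMENA11a to 118% of control. In siMENA against control 1 of the 8 tested genes passed, where 18.6% of all tested genes did (8.24% as lower); in siMENA11a against control 1 of 8, against 19.5%; and in siMENA11a against siMENA 1 of 8, against 36.6% (14.4% as higher). These shares are near or below the background. At an unadjusted p under 0.05 the numbers were 3, 2 and 3, with EGFR among them in the first and last comparison and ERBB2 in the last. The groups did not overlap for 3, 2 and 3 of the 8 genes in these comparisons, where 40.1%, 36.7% and 47.8% of all tested genes did not overlap. The median log2 fold changes of the 8 genes were 0.12, 0.06 and 0.05, beside 0.04, -0.01 and -0.05 over all tested genes.

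**Figure D1:**
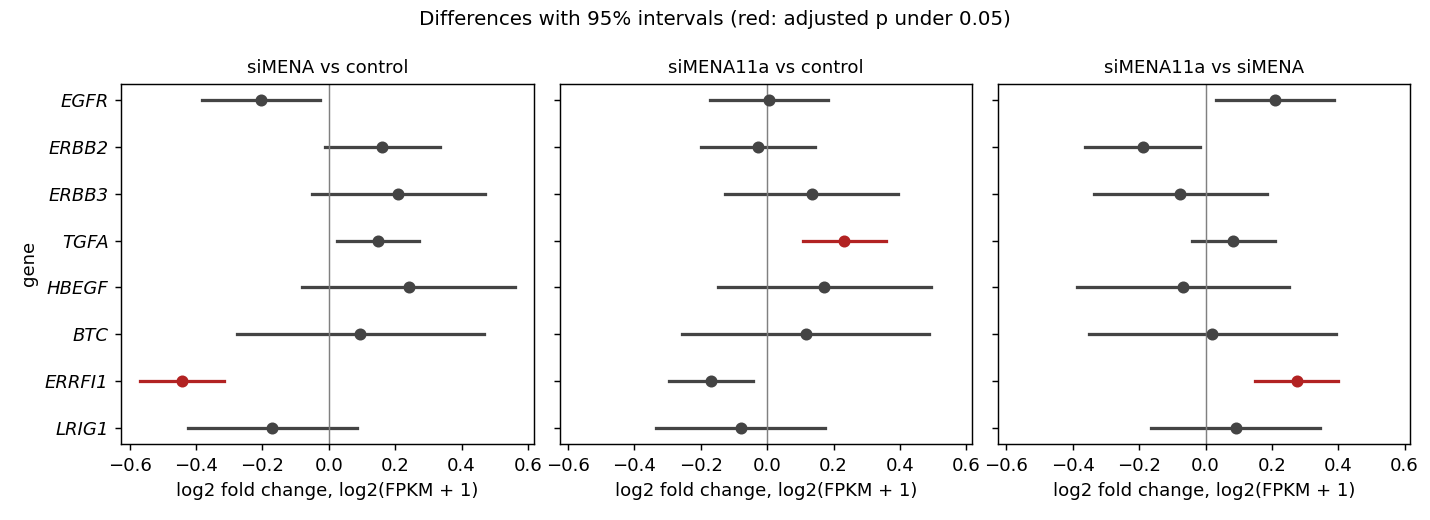
Log2 fold change on the log2(FPKM + 1) scale, with its 95% interval, of the 8 tested genes in each comparison (3 libraries a group); red marks an adjusted p under 0.05. ERRFI1 lies at -0.44 in siMENA against control and at 0.27 in siMENA11a against siMENA, and TGFA at 0.23 in siMENA11a against control.

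The levels of the genes formed a steep order that was the same in nearly all libraries. Averaged over the 9 libraries, ERRFI1 had 93.6 FPKM, ERBB2 65.0, TGFA 47.9, EGFR 36.8 and ERBB3 15.1. The rest were far lower, with HBEGF at 2.27 FPKM, BTC at 1.46, LRIG1 at 0.657, EREG at 0.210 and AREG at 0.174. The higher gene of each neighbouring pair was higher in 9 of 9 libraries, except for EREG over AREG, where it was in 6 of 9. Over all libraries the ranges overlapped for ERRFI1 and ERBB2, TGFA and EGFR, HBEGF and BTC, BTC and LRIG1, and EREG and AREG. ERRFI1 was above 94.6% of the genes of the table and EGFR above 85.7%.

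**Figure D2:**
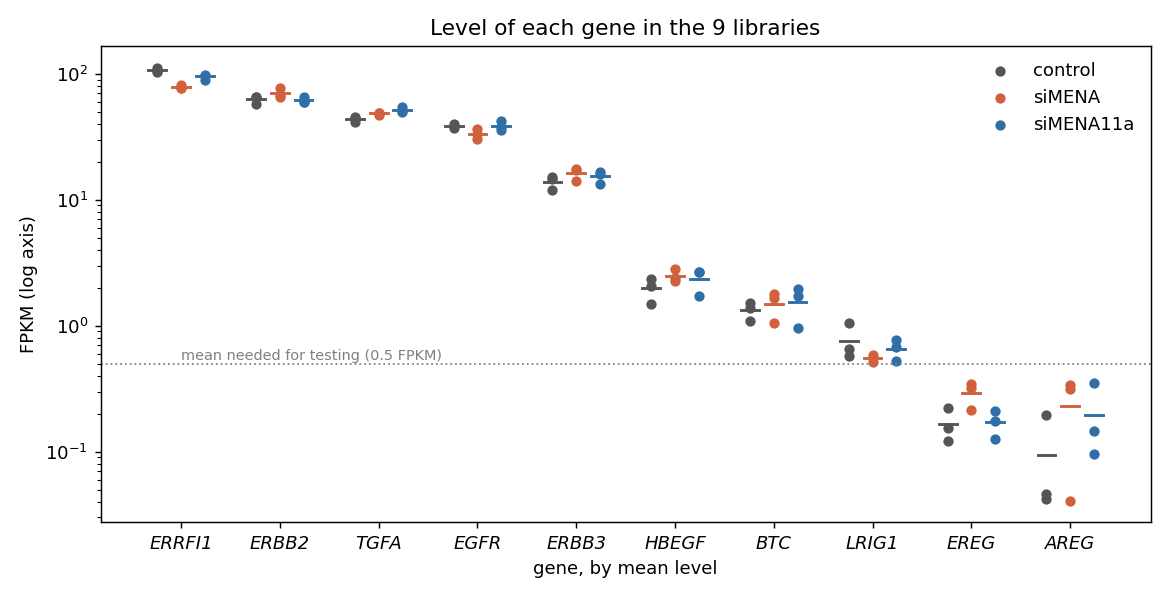
FPKM of the 10 genes on a log axis, ordered by mean level; points are libraries, bars are group means and the dotted line is the 0.5 FPKM needed for testing. The 5 upper genes lie between 11.9 and 112 FPKM, and the other genes at or below 2.80 FPKM.

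EGFR (chr7:55019021-55211628), the receptor that binds TGFA, AREG and EPGN directly, measured 37.0, 40.0 and 38.3 FPKM in control replicates 1 to 3. It measured 30.2, 33.2 and 36.5 FPKM under siMENA and 37.8, 42.3 and 35.7 under siMENA11a. Each siMENA library was below each control library, while the siMENA11a libraries spread on both sides of control. The log2 fold change of siMENA against control was -0.21 (95% interval -0.38 to -0.03), and its limma adjusted p of 0.101 did not pass. For siMENA11a against control it was 0.00 (-0.17 to 0.18, adjusted p 0.978). Under siMENA11a EGFR stood 0.21 higher than under siMENA (0.03 to 0.39, adjusted p 0.0643). Without siMENA replicate 3 that difference passed (adjusted p 0.0285), as it did without siMENA11a replicate 3 (0.042), with median-ratio scaling of the libraries (0.0262) and with quantile normalization (0.03).

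ERBB2 (chr17:39687914-39730426), the partner receptor without a ligand, measured 66.0, 57.4 and 65.2 FPKM in control, 68.0, 65.8 and 77.7 under siMENA and 65.0, 59.6 and 60.1 under siMENA11a. The siMENA libraries overlapped control and lay above all siMENA11a libraries. The log2 fold changes were 0.16 for siMENA against control (-0.01 to 0.33, limma adjusted p 0.173) and -0.03 for siMENA11a against control (-0.20 to 0.14, adjusted p 0.84). For siMENA11a against siMENA the value was -0.19 (-0.36 to -0.02, adjusted p 0.081). None of these passed. Set against EGFR in the same library, ERBB2 was 1.43 to 1.78 times as high in control, 1.98 to 2.25 times under siMENA and 1.41 to 1.72 times under siMENA11a, so the siMENA ratios lay above those of both other groups.

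ERBB3 (chr12:56076799-56103505), the receptor for neuregulins, measured 15.1, 11.9 and 14.6 FPKM in control, 17.1, 14.0 and 17.5 under siMENA and 16.7, 13.2 and 15.9 under siMENA11a. All groups overlapped, and in each of them the library numbered 2 was the lowest. The log2 fold change of siMENA against control was 0.21 (-0.05 to 0.47, limma adjusted p 0.24), with siMENA higher in 3 of 3 pairs of the same number. With the replicate number as a block, the same difference had an adjusted p of 0.0181. The values were 0.13 for siMENA11a against control (adjusted p 0.461) and -0.08 for siMENA11a against siMENA (adjusted p 0.65).

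TGFA (chr2:70447280-70554193, minus strand), a ligand of EGFR, supplied 90.9% to 93.2% of the summed FPKM of the 5 ligands in each library, and 59.4% to 72.7% when the ligands EPGN and EGF were added. It measured 41.2, 45.7 and 44.3 FPKM in control, 49.05, 47.4 and 49.2 under siMENA and 51.0, 54.1 and 49.5 under siMENA11a. Every library of both siRNA groups was above every control library, and every siMENA11a library was above every siMENA library. Under siMENA11a the log2 level of TGFA rose by 0.23 (SE 0.06, interval 0.11 to 0.36, limma adjusted p 0.0171). Under siMENA the value was 0.15 (0.03 to 0.27, adjusted p 0.09), and that of siMENA11a against siMENA 0.08 (-0.04 to 0.21, adjusted p 0.266), so neither of these passed. The call under siMENA11a ended without control replicate 1 (0.19, adjusted p 0.0593, over a range of 0.00842 to 0.0593 in all alternatives). The value of that library is one whose decimal point was restored, from 41162 to 41.2 FPKM, and the call also ended with such values set to missing (0.19, adjusted p 0.051).

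HBEGF (chr5:140332843-140346631, minus strand), a ligand of EGFR that binds heparin, measured 1.49, 2.36 and 2.07 FPKM in control, 2.40, 2.80 and 2.28 under siMENA and 1.73, 2.66 and 2.68 under siMENA11a. BTC (chr4:74744759-74794686, minus strand), the ligand betacellulin, measured 1.37, 1.09 and 1.51 FPKM in control, 1.78, 1.05 and 1.66 under siMENA and 1.73, 0.966 and 1.96 under siMENA11a. The groups overlapped for both genes. The log2 fold changes of HBEGF were 0.24 under siMENA (-0.08 to 0.56) and 0.17 under siMENA11a (-0.15 to 0.49), with limma adjusted p of 0.272 and 0.442. Those of BTC were 0.10 (-0.28 to 0.47) and 0.12 (-0.26 to 0.49), with adjusted p of 0.731 and 0.674. For siMENA11a against siMENA the values were -0.07 for HBEGF and 0.02 for BTC (adjusted p 0.746 and 0.936).

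EREG (chr4:74365143-74388751) and AREG (chr4:74445134-74455009) are the neighbouring genes of the ligands epiregulin and amphiregulin, and both were close to the lower end of the measured range. EREG measured 0.122, 0.222 and 0.155 FPKM in control, 0.321, 0.346 and 0.213 under siMENA and 0.127, 0.211 and 0.174 under siMENA11a. The siMENA libraries lay above all siMENA11a libraries and overlapped control. With no filter on low values, EREG had log2 fold changes of 0.15 in siMENA against control and -0.14 in siMENA11a against siMENA, with limma adjusted p of 0.116 and 0.0888. AREG measured 0.195, 0.0462 and 0.0424 FPKM in control, 0.341, 0.311 and 0.0409 under siMENA and 0.350, 0.0964 and 0.145 under siMENA11a, and all groups overlapped. Its values are uncertain, because AREGB, a near-identical copy annotated in hg19 and now a synonym of AREG, is not a gene name of the table.

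Summed over the 5 ligands, the level was 44.3 to 49.4 FPKM in control, 51.9 to 53.9 under siMENA and 54.4 to 58.0 under siMENA11a. The groups did not overlap, and the order followed that of TGFA. With EPGN and EGF added, the sums were 69.3 to 72.2, 71.2 to 75.9 and 73.6 to 75.6 FPKM, and siMENA overlapped both other groups.

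ERRFI1 (chr1:8004404-8026308, minus strand), the feedback inhibitor, measured 106, 103 and 112 FPKM in control, 76.7, 76.7 and 82.05 under siMENA and 96.7, 90.1 and 98.7 under siMENA11a. The 3 groups were separate, with control highest, siMENA11a between and siMENA lowest. In means the levels were 107 ± 4.45, 78.5 ± 3.08 and 95.2 ± 4.52 FPKM (SD, n = 3). The log2 fold change of siMENA against control was -0.44 (SE 0.06, interval -0.57 to -0.32, limma adjusted p 0.000894). For siMENA11a against control it was -0.17 (-0.29 to -0.04, adjusted p 0.0636), which did not pass. ERRFI1 was higher under siMENA11a than under siMENA by 0.27 (SE 0.06, interval 0.15 to 0.40, adjusted p 0.00444), in 3 of 3 pairs. By exact permutation of the libraries, two-sided, the FPKM gave p = 0.1 in each comparison, the smallest that 3 against 3 libraries allow. In bulk RNA, fewer cells that express a gene and less RNA per cell cannot be told apart.

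All 3 control values of ERRFI1 are ones whose decimal point was restored. They were deposited as 105726, 103389 and 111988. This is 1201 to 1301 times the median of the gene's values that kept a decimal point, which all come from the siRNA groups. With such values set to missing, no comparison of ERRFI1 with control could be made, while siMENA11a against siMENA had a log2 fold change of 0.27 and an adjusted p of 0.00804. In the 15 other settings in which it could be tested, siMENA against control ran from -0.48 to -0.41, with limma adjusted p of 0.000478 to 0.00813.

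**Figure D3:**
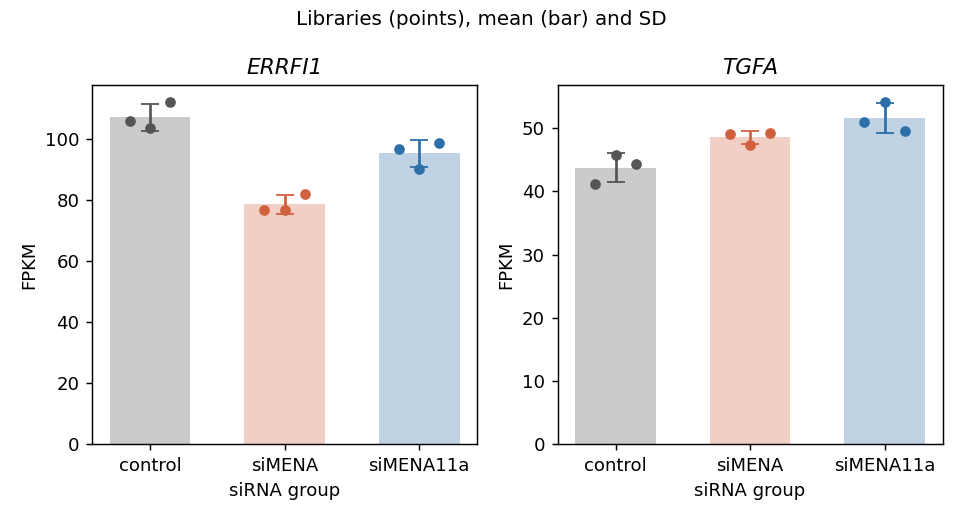
FPKM of ERRFI1 and TGFA in each group; points are libraries, bars start at 0 and show the mean, and error bars are the SD (n = 3). The 3 groups of ERRFI1 are separate at 103 to 112, 76.7 to 82.05 and 90.1 to 98.7 FPKM, and those of TGFA at 41.2 to 45.7, 47.4 to 49.2 and 49.5 to 54.1 FPKM.

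Relative to its inhibitor, EGFR stood at 0.342 to 0.387 times the level of ERRFI1 in control, 0.394 to 0.445 times under siMENA and 0.362 to 0.470 times under siMENA11a. The siMENA ratios were above those of control, and the siMENA11a ratios overlapped both.

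LRIG1 (chr3:66378797-66501263, minus strand), the inhibitor that promotes receptor breakdown, measured 0.651, 1.05 and 0.578 FPKM in control, 0.557, 0.590 and 0.515 under siMENA and 0.677, 0.774 and 0.521 under siMENA11a. The groups overlapped, and the library numbered 2 was the highest of each. The log2 fold changes were -0.17 under siMENA (-0.43 to 0.09), -0.08 under siMENA11a (-0.34 to 0.18) and 0.09 between the siRNA groups, with limma adjusted p of 0.331, 0.673 and 0.572.

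The libraries numbered 2 shared deviations beyond ERBB3 and LRIG1. ERBB2, ERBB3, BTC and ERRFI1 were lowest in the library numbered 2 of all 3 groups, and LRIG1 was highest there, as was EREG. This covers 5 of the 8 tested genes (62.5%), where 24.1% of all tested genes had such a pattern. The count goes by rank and includes near-ties. Under siMENA, ERRFI1 had 76.69 FPKM in replicate 2 and 76.74 in replicate 1. Under siMENA11a, ERBB2 had 59.61 FPKM in replicate 2 and 60.14 in replicate 3. The deviations of the libraries numbered 2 from their group means correlated across genes at 0.309 to 0.425 between groups. Of the 7 markers of other cell types in the table, COL3A1, CD14 and PECAM1 were highest in the library numbered 2 of each group, with COL3A1, a fibroblast collagen, at 2.24, 3.22 and 1.90 FPKM in control, siMENA and siMENA11a against at most 0.384 FPKM elsewhere. COL1A1, another fibroblast collagen, VWF and CDH5 were not, and COL1A2 had missing values. The effect of these libraries was examined by leaving them out and by the replicate block, and the part of the other cell types' RNA was not tested. Without all 3 of them, ERRFI1 stayed called in siMENA against control, and TGFA in siMENA11a against control did not.

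**Figure D4:**
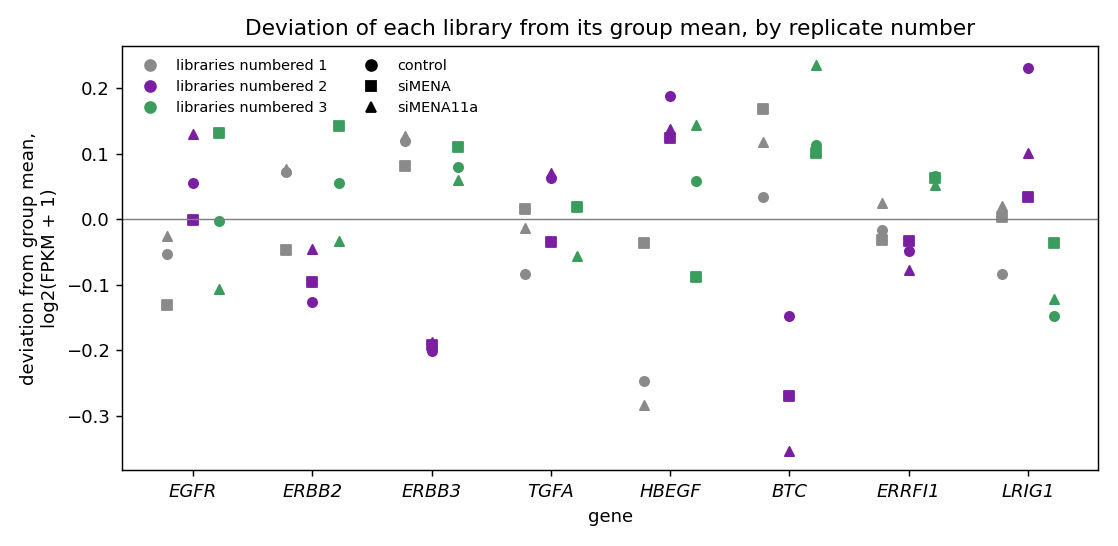
Deviation of each library from its group mean, in log2(FPKM + 1), for the 8 tested genes; colours are the replicate numbers and shapes the groups. The libraries numbered 2 lie below 0 in all 3 groups for ERBB2, ERBB3, BTC and ERRFI1 and above 0 for LRIG1.

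Of 7 further receptors and ligands of the family, 5 were in the table and 4 were tested. EPGN, the ligand epigen, had 22.6 to 24.9 FPKM in control, 17.8 to 22.1 under siMENA and 16.2 to 20.6 under siMENA11a, which places it between EGFR and ERBB3 in level. It was the one to pass, under siMENA11a against control (log2 fold change -0.34, limma adjusted p 0.0401). That call ended when any one of control replicates 1, 2 and 3 or siMENA11a replicates 2 and 3 was left out (0.0655 to 0.114). It also ended without the libraries numbered 2, with either other scaling, with no filter and with no mean-variance trend. The neuregulins NRG1, NRG2 and NRG4 did not pass by limma in any comparison (1 of the list was higher in siMENA11a against siMENA at an unadjusted p under 0.05, and none in siMENA against control). In siMENA11a against siMENA, alternatives called NRG4 higher with no filter, with median-ratio scaling and with no trend (adjusted p 0.0346 to 0.0474), and NRG1 lower with the replicate block, without siMENA11a replicate 2 and without the libraries numbered 2 (0.0163 to 0.0488). EGF stayed at or below 0.214 FPKM.

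Of 8 tested genes of ligand shedding, RHBDF2, a rhomboid-like protein that carries ADAM17 to the cell surface, rose under siMENA from 2.65 ± 0.27 to 4.44 ± 0.05 FPKM (SD, n = 3; log2 fold change 0.58, limma adjusted p 0.00543). ADAM17, the protease that releases TGFA, AREG, EREG and HBEGF, was the other to pass under siMENA, higher by 0.16 (adjusted p 0.0485), and no gene fell (4 higher and 0 lower at an unadjusted p under 0.05). The ADAM17 call ended without any single library of the 2 groups (0.0704 to 0.157), which leaves 1 gene. Of all tested genes, 18.6% passed under siMENA. Under siMENA11a against control ADAM17 fell by 0.16 and ADAM9 by 0.22 (adjusted p 0.0391 and 0.0167), and no gene rose (1 higher and 3 lower at an unadjusted p under 0.05). These 2 calls of 8 stand beside 19.5% of all tested genes. Leaving out control replicate 2, control replicate 3 or siMENA11a replicate 1 left 0 of these calls, and control replicate 1, siMENA11a replicate 2 or siMENA11a replicate 3 left ADAM9. CNIH4, of the same list, was called higher without siMENA11a replicate 2 (0.25, adjusted p 0.0286). Against siMENA, ADAM17 was lower under siMENA11a (log2 fold change -0.32, adjusted p 0.000776), at 21.1 ± 0.35 against 26.6 ± 0.81 FPKM, and RHBDF2 and FRMD8, a partner of RHBDF2, were also lower there (-0.36 and -0.26, adjusted p 0.023 and 0.0206). These 3 calls of 8 are a share near the 36.6% of all tested genes (22.2% lower). The calls of RHBDF2 and FRMD8 ended without siMENA replicates 2 or 3 or siMENA11a replicates 1 or 3. That of RHBDF2 also ended without siMENA replicate 1, whereas the ADAM17 call stayed. The list then held 1 gene without siMENA replicate 2, siMENA11a replicate 1 or siMENA11a replicate 3.

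Among 20 tested adaptors and ubiquitin ligases of the receptors, GRB2, the adaptor that recruits SOS to EGFR, rose under siMENA by 0.26, and EPS15, an endocytic adaptor, and PTPN1, a phosphatase of EGFR, fell by 0.49 and 0.30 (limma adjusted p 0.00644, 0.000401 and 0.0036). These 3 calls of 20 stand beside 18.6% of all tested genes. They stayed when each library was left out, and with the replicate number as a block 5 passed. Under siMENA11a against control 2 rose and 2 fell, a share near the 19.5% of all tested genes. SOS2, a RAS exchange factor, and RNF41, a ubiquitin ligase for ERBB3, were higher by 0.25 and 0.21, and EPN1 and PLCG1 were lower by a log2 fold change of -0.39 and -0.27 (adjusted p 0.0268 to 0.0323 over the first 3, and 0.0227). None of these 4 passed without control replicate 2 or siMENA11a replicate 3, and 1 of the 20 passed without control replicate 1, control replicate 3 or siMENA11a replicate 1. Between the siRNA groups 3 were higher and 4 lower under siMENA11a, a share near the 36.6% of all tested genes (14.4% higher and 22.2% lower), led by EPS15 at 0.63 and EPN1 at -0.59 (adjusted p 3.75e-05 and 0.00257). With median-ratio scaling 6 were higher and 3 lower, and with quantile normalization 5 and 3.

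Of 7 other receptor inhibitors, SOCS3, a feedback inhibitor of cytokine receptors, had the largest log2 fold change among those that passed. It measured 12.04, 13.2 and 10.4 FPKM in control, 6.22, 7.96 and 6.93 under siMENA and 13.9, 16.3 and 15.8 under siMENA11a, in 3 separate groups. SOCS3 fell by 0.68 under siMENA (limma adjusted p 0.00255) and was higher under siMENA11a than under siMENA by 1.03 (adjusted p 8.75e-05), where 3 of the 7 genes were higher and 0 lower (likewise 3 and 0 at an unadjusted p under 0.05). Of all tested genes, 14.4% were higher and 22.2% lower between the siRNA groups. Under siMENA 1 gene of this list rose and 2 fell, where 18.6% of all tested genes passed. LRIG2, a relative of LRIG1, was the one that rose (0.28), and SOCS5 fell with SOCS3. The LRIG2 and SOCS5 calls ended without any single library of the 2 groups (adjusted p 0.0502 to 0.111), and with the replicate number as a block 5 genes passed. Under siMENA11a against control SOCS3 and SOCS4 were higher (0.35 and 0.19, adjusted p 0.0449 and 0.0446), where 19.5% of all tested genes passed. Neither of these passed without replicate 3 of either group, control replicate 1 or siMENA11a replicate 2, and 1 did without siMENA11a replicate 1.

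Of the 13 RAS, RAF, MEK and ERK genes, NRAS was lower under siMENA (log2 fold change -0.27, limma adjusted p 0.0213). That call ended when any one of control replicates 2 and 3 or siMENA replicates 1, 2 and 3 was left out (0.0519 to 0.0692). Under siMENA11a against control 1 rose and 3 fell, where 19.5% of all tested genes passed. MAPK3, which encodes ERK1, fell from 33.5 ± 1.78 to 22.2 ± 1.62 FPKM (log2 fold change -0.58, adjusted p 0.000441) and HRAS from 23.5 ± 2.31 to 16.2 ± 0.85 FPKM (-0.51, adjusted p 0.00286), whichever library was left out. Against siMENA 2 of the 13 were higher and 4 lower, where 36.6% of all tested genes passed; NRAS was higher under siMENA11a (log2 fold change 0.43, adjusted p 0.00107).

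Of the 18 tested genes of the PI3K, AKT and mTOR pathway, 3 rose and 2 fell under siMENA, where 18.6% of all tested genes passed. MTOR, the kinase of growth control, fell from 23.7 ± 0.79 to 15.3 ± 0.87 FPKM (log2 fold change -0.60, limma adjusted p 0.000179), and PHLPP1, a phosphatase of AKT, rose by 0.35 (adjusted p 0.00615). With median-ratio scaling 1 rose and 4 fell, with quantile normalization 1 and 3, and with no mean-variance trend 1 and 2. The number that passed was 3 of 18 without replicate 1 of either group, control replicate 3 or siMENA replicate 2. Under siMENA11a against control 3 rose and 2 fell, where 19.5% of all tested genes passed. PIK3R3, a regulatory subunit of PI3K, led at 0.41 and AKT1 at -0.38 (adjusted p 0.00693 and 0.00118). Without control replicate 1 or control replicate 3, 3 passed. Between the siRNA groups 3 were higher and 6 lower under siMENA11a, where 14.4% of all tested genes were higher and 22.2% lower, and MTOR was 0.46 higher there (adjusted p 0.000267).

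Of 22 tested target genes of EGFR and ERK signaling, 9 rose and 0 fell under siMENA, where 10.3% of all tested genes rose; at an unadjusted p under 0.05, 11 were higher and 0 lower. MYC rose from 24.1 ± 1.37 to 36.8 ± 0.34 FPKM (log2 fold change 0.59, limma adjusted p 0.000523) and JUN from 19.0 ± 1.09 to 26.9 ± 0.86 FPKM (0.49, adjusted p 0.00126). ETV5, an ETS factor, and PLAUR, the urokinase receptor, rose by 0.84 and 0.63 (adjusted p 0.0134 and 0.0247), and the median of the 22 was 0.20, beside 0.04 over all tested genes. The rises of MYC and JUN passed whichever library was left out. The ETV5 call ended without control replicate 3 or siMENA replicate 2 and that of PLAUR also without control replicate 1 or siMENA replicate 1. The count of 9 was 7 without the libraries numbered 2, 3 without control replicate 3, 4 without siMENA replicate 2 and 5 without siMENA replicate 1 or siMENA replicate 3. With the replicate block 10 rose and 1 fell.

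Under siMENA11a against control 6 of the 22 target genes rose and 0 fell, where 8.16% of all tested genes rose; at an unadjusted p under 0.05, 7 were higher and 2 lower. The median was 0.21, beside -0.01 over all tested genes, and 4 rose without the libraries numbered 2. With the replicate block 7 rose and 1 fell. With no mean-variance trend, or without siMENA11a replicate 1, 6 rose and 1 fell. DUSP6, the phosphatase that acts on ERK, rose from 5.26 ± 0.73 to 8.18 ± 0.43 FPKM (log2 fold change 0.56, limma adjusted p 0.00329) and JUN by 0.36 (adjusted p 0.00545), whichever library was left out. PLAUR and JUNB rose by 0.63 and 0.33, a call that ended for PLAUR without control replicate 1 or 3 and for JUNB without control replicates 2 or 3 or siMENA11a replicates 1 or 3. Between the siRNA groups 2 of the 22 were higher and 6 lower under siMENA11a, a share near the 36.6% of all tested genes. MYC, SPRY1 and PHLDA1 were lower there by log2 fold changes of -0.51, -0.49 and -0.43 (adjusted p 0.000427, 0.00239 and 0.00119). Both comparisons with control share the same control libraries, so their values are not independent of each other. ERRFI1 is itself known as a target of the pathway, and it fell under siMENA where the 9 passing target genes rose. Of the 13 tested target genes that did not pass under siMENA, some also lay below 0. Their log2 fold changes ran from -0.41 to -0.05, and the others lay above 0.

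**Figure D5:**
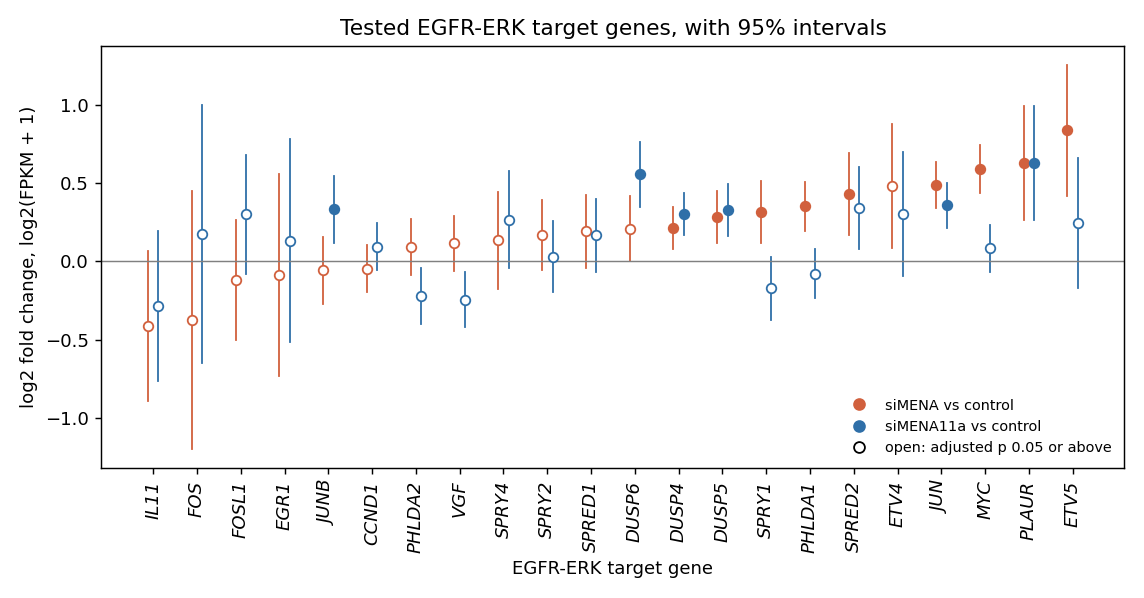
Log2 fold change against control, on the log2(FPKM + 1) scale with 95% intervals, of the 22 tested EGFR-ERK target genes under siMENA and siMENA11a; filled points have an adjusted p under 0.05. All filled points, 9 for siMENA and 6 for siMENA11a, lie above 0.

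By pattern over the 9 libraries, the genes most like ERRFI1 were MYO5B, EMP2, TTC3, SLC6A2 and PJA2. Their Pearson correlations with it, on the log2(FPKM + 1) scale, were 0.990, 0.986, 0.983, 0.982 and 0.981, given as a description over libraries that share groups and depth. MYO5B, an unconventional myosin, averaged 24.1 FPKM in control, 15.8 under siMENA and 20.9 under siMENA11a, and EMP2, a membrane protein, 49.99, 33.0 and 42.2 FPKM.

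The labelled cell type was checked against markers. The 8 epithelial markers summed to 5049 to 5404 FPKM in control, 4950 to 5194 under siMENA and 4246 to 4777 under siMENA11a. KRT7 fell under siMENA (log2 fold change -0.41, limma adjusted p 0.0059), and CDH1, KRT18 and KRT8 fell under siMENA11a (-0.42, -0.40 and -0.35, adjusted p 0.00196, 0.0102 and 0.029). KRT8 did not pass there when any one of control replicates 1 to 3 or siMENA11a replicates 1 and 2 was left out. Between the siRNA groups KRT7 was higher and CDH1, KRT8 and KRT18 lower under siMENA11a; the KRT8 call ended without siMENA replicate 1 or 2 and that of KRT18 without siMENA replicate 1. Of 12 markers of leukocytes, endothelium and fibroblasts, 7 were in the table and summed to 3.83 to 8.22 FPKM in control, 4.01 to 8.92 under siMENA and 4.73 to 10.2 under siMENA11a. None of the 2 tested passed by limma in any comparison of the main fit, adjusted or unadjusted. With the replicate block 1 of the 2 was called higher in siMENA11a against control. PTPRC, CD3E, PDGFRB and DES were among those with no row.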

How the data were processed

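Total RNA of 9 libraries was depleted of ribosomal RNA and sequenced as stranded pairs, per the labels' protocols. The authors deposited 1 table of FPKM values for 16630 genes, and the submitters' processing notes name the build hg19. Aligner, quantifier and annotation were not given in the sources used here. Without counts the absolute depth is unknown, but from the spacing of low values the other 8 libraries had 1.14 to 1.57 times the depth of control replicate 1. Sums were 558754 to 592930 FPKM per library. Because FPKM is relative to each library's total, the most abundant RNAs influence every other value.

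Of the deposited values, 11524 (7.91%) were whole numbers about 1000 times above the other values of their gene, or in genes with no decimal value. They were read as having lost their decimal point and divided by 1000; 16 whole numbers near their gene's other values were kept. Of the 90 values of the 10 genes, 9 were divided, in ERBB2, ERBB3, TGFA and ERRFI1. Genes with any missing value (1286) were not tested.

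log2(FPKM + 1) of 13273 genes was fitted in limma 3.58.1 (R 4.3.3), with a mean-variance trend, in 1 model of group over the 9 libraries (6 residual degrees of freedom). Adjustment was by Benjamini-Hochberg over all tested genes, with 0.05 as threshold. A fold change on this scale understates the change of low genes. The fit was tested on simulated data. Alternatives were pseudocount 0.1, no filter or a filter at 2 FPKM, median-ratio and quantile scaling, a replicate block, only the groups compared, no trend, restored values set to missing, and each library left out.

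The labels number the libraries 1 to 3 in each group. The deposited column names run in rounds of control, siMENA and siMENA11a that follow these numbers. Such an order goes with pairing but does not by itself say that a round was prepared together. Deviations of same-numbered control and siMENA libraries correlated at 0.124, 0.378 and 0.196, each over 0.1, a rule for pairing that rests on the data alone. The other comparisons did not reach this for every number. Control replicate 1 and siMENA replicate 3, of unlike number, correlated at 0.113, so the rule does not establish pairing. Results with the replicate block are given as an alternative only.

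The 10 genes and the 9 lists (121 genes, 112 in the table) were chosen with earlier results of these data known. Named are the 10 genes, ENAH, per list up to 4 passing genes with the largest change in each comparison, and the 5 genes most like the most changed of the 10. COL3A1, CNIH4, EGF and the neuregulins were named after their values were seen, and a few listed genes are not reported here. Gene positions, exon 11a and 3′ UTRs come from GENCODE 29 on GRCh38, principal transcripts only, and were not set against hg19 positions.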

Additional observations from a re-analysis of the deposited data

How the results depend on the processing

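With few libraries and no counts, differences as small as those of most of these genes lie within their intervals. With the replicate number as a block, 2 of the 8 genes passed in siMENA against control (ERBB3 added), 2 in siMENA11a against control (ERRFI1 added, adjusted p 0.0286) and 3 between the siRNA groups (EGFR and ERBB2 added, 0.0451 and 0.0406), where 1 passed in each without it. Only the numbers of control and siMENA met the rule for pairing, which does not establish it. Over all tested genes the block gave 3149, 3431 and 5648 calls against 2463, 2583 and 4857. With restored values set to missing, 0 genes of the set passed in either comparison with control, and ERRFI1 could not be tested in them. Median-ratio and quantile scaling each gave 2 in siMENA11a against siMENA, with EGFR added. The share of all calls that were lower moved from 44.4% to 56.2% and 52.0% with these scalings in siMENA against control, and from 60.6% to 50.1% and 50.9% in siMENA11a against siMENA.

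Leaving out single libraries gave 0 to 1 genes of the set in siMENA11a against control and 1 to 2 in siMENA11a against siMENA. It gave 1346 to 2020 of all tested genes in siMENA against control and 1493 to 2390 in siMENA11a against control. Without the 3 libraries numbered 2, an alternative chosen after seeing the data, the counts were 1614 and 1641, and 0 genes of the set passed in siMENA11a against control.

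Values that did not pass changed sign in a few settings. For siMENA11a against control, leaving out single libraries gave -0.061 (without siMENA11a replicate 2) to 0.057 for EGFR, which was also below 0 without control replicate 1 (-0.023). In the same way ERBB2 ran from -0.091 to 0.0082 (without control replicate 1), BTC from -0.0020 (without siMENA11a replicate 3) to 0.29 and LRIG1 from -0.15 to 0.035 (without control replicate 2). EGFR was -0.033 without the libraries numbered 2, and ERBB2 0.00032 with quantile normalization. Between the siRNA groups ERBB3 ran from -0.17 to 0.018 (without siMENA11a replicate 2), HBEGF from -0.14 to 0.073 (without siMENA11a replicate 1) and BTC from -0.11 (without siMENA replicate 2) to 0.20. BTC was also below 0 without siMENA11a replicate 1 (-0.038) or replicate 3 (-0.097), and ERBB3 was 0.094 with restored values set to missing. The cause was not tested.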
